A study of Drosophila melanogaster with 4 samples.

Results

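Large Myb-poor chromosomal domains were defined in wing imaginal discs as the 50-kb bins with the lowest Myb ChIP signal. The X, chromosome 4 and both arms of chromosomes 2 and 3 (2L, 2R, 3L and 3R) were cut into consecutive bins from position 1 of each (genome build dm3), and a bin was kept when it held 300 or more array probes. The 10% of bins with the lowest ratio of immunoprecipitate to input, averaged over 2 replicates, were taken, which gave 240 Myb-poor bins among 2405 bins. The 240 bins covered 12 Mb and merged with their neighbours into 130 domains.

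Chromatin came from imaginal wing discs of male yw67 (yellow white) 3rd instar larvae, fixed with 1.8% formaldehyde for 15 min and sheared to about 400 bp. DNA pulled down with Myb was labelled with Cy5, and input DNA of the same chromatin with Cy3, and both were hybridised to Agilent tiling arrays. Each of the 2 biological replicates was spread over 2 array designs, design 1 with arms 2L, 2R and 3L and design 2 with arms 3R, 4 and X, so that 4 arrays were made. All 4 arrays had the same genotype, tissue and stage, the dyes were never swapped, and no Myb mutant or mock pull-down was analysed here, so that a dye effect and the Myb signal cannot be told apart. Wing discs are dissected whole and hold several cell types. The arrays carried 1568407 probes on these 6 arms, 50 bp long and 66 bp apart at the median, and the small number of arrays limits the precision of every value below. Each log2 ratio is relative to the median probe of its array. A negative value therefore means less Myb signal than the median probe and not absence of Myb.

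Myb is a DNA-binding transcription factor that in flies works within a large complex with E2F2 and the retinoblastoma-related protein RBF, and it is best known in dividing tissues such as the wing disc for its place at promoters of mitotic genes. Fly genes that are used in only a few cell types, such as neuronal surface proteins, chemoreceptors and testis genes, often lie side by side in long clusters. Such clusters are typically silent and compact in other tissues, and many replicate late in S phase.

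The 240 Myb-poor bins had a median log2 ratio of -0.36 in replicate 1 and of -0.35 in replicate 2, against 0.07 and 0.15 over all bins. The lowest bin lay at -0.59 and the highest at -0.19 in replicate 1, and the range in replicate 2 ran from -0.62 to -0.16. All 240 bins were below 0 in both replicates, and the median SD between the replicates of a bin was 0.04 (n = 2). Only 3 of the 240 bins differed by more than 0.2 between replicates. These are the values that chose the bins and they carry no test. At the threshold, the highest Myb-poor bin had a mean of -0.2671 (2L:17700001-17750000, -0.26 and -0.27 in the 2 replicates) and the lowest bin left out had -0.2669 (3R:20500001-20550000, -0.35 and -0.18). The 5 bins on either side of the threshold all lay between -0.27048 and -0.265556, so that the edge of the set separates no visible group.

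**Figure D1:**
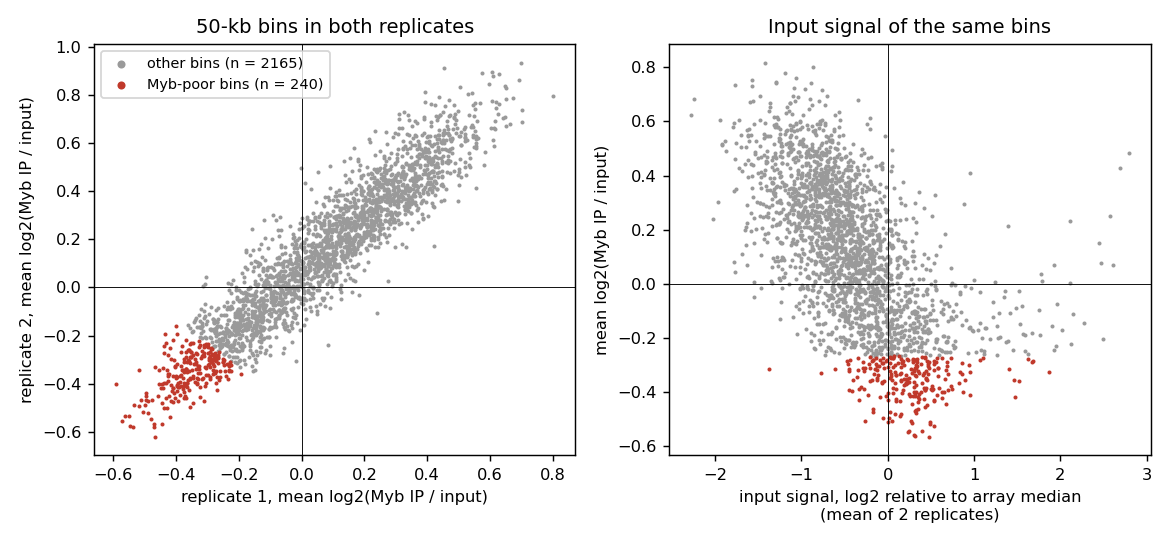
Left, mean log2 ratio of Myb immunoprecipitate over input of each 50-kb bin in replicate 1 (x axis) and replicate 2 (y axis), with the 240 Myb-poor bins in red and the 2165 other bins in grey. Right, the log2 ratio of the same bins against their input signal (log2, relative to the array median, mean of 2 replicates); the Myb-poor bins lie mostly at an input above 0, where the median over all bins is -0.42 in replicate 1 and -0.45 in replicate 2.

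Choosing the bins in 1 replicate and reading them in the other gives a value that the choice did not use. The replicates still shared their probes and the pattern of their input signal, which had Pearson's r of 0.995 across bins. The lowest 240 bins of replicate 1 had a median of -0.33 in replicate 2 (from -0.62 to 0.04), and 237 of them (98.8%) were below 0 there, against 34.5% of all bins. The lowest 240 bins of replicate 2 had a median of -0.34 in replicate 1 (from -0.59 to -0.02), where 240 of 240 were below 0, against 41.3% of all bins. Both lists shared 169 bins, 70.4% of each list. Of the Myb-poor bins chosen on the mean, 198 were in the lowest 10% of replicate 1, 211 in that of replicate 2 and 169 in both. Across the 2405 bins the replicates followed each other with Pearson's r of 0.938 and Spearman's rho of 0.940, as a description, since neighbouring bins and the shared probes make the points dependent.

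The low signal was spread over most of the probes of a bin. A median of 69.6% of the probes in a Myb-poor bin were below 0 in both replicates, against 28.4% over all bins. The median probe of a Myb-poor bin lay at -0.34, its 10th percentile probe at -0.79 and its 90th percentile probe at 0.10, against 0.07, -0.47 and 0.74 for the median of all bins. A median of 7.64% of the probes in a Myb-poor bin were above 0 in both replicates (from 0.91% to 17.4%), against 40.4% over all bins. In 5-kb windows with 30 or more probes, 2252 of 2360 windows in Myb-poor bins (95.4%) were below 0 in both replicates and 45 (1.91%) above 0 in both. Elsewhere 31.4% of the 21409 windows were below and 53.4% above 0 in both replicates. In 203 of the 240 bins no 5-kb window was above 0 in both, and 37 bins held 1 or more. The mean of these same probes chose the bins, so the contrast with other bins follows from the choice.

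The same contrast at single probes was fitted with limma over 1865871 genome probes, with Benjamini-Hochberg adjustment at 0.05. Of all probes, 3.86% were called below 0 and 9.77% above 0. Among the 154433 tested probes of the Myb-poor bins, 17592 (11.4%) were called below and 517 (0.335%) above. Each of the 240 bins held at least 1 probe called below 0, with a median of 69 per bin, and 132 of them held no probe called above 0. Among the 2165 other bins, the median was 66 probes called above and 15 called below, and 64 bins held none called above. In the limma fit to bin means, 22.7% of the 2405 bins were called below 0, and the Myb-poor bins made up 240 of these 547. Since the bins were chosen on this very ratio, the counts describe them and test nothing.

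The input channel moved with these bins. The input signal, on a log2 scale relative to the array median, had a median of 0.24 in replicate 1 and 0.29 in replicate 2 in the Myb-poor bins, against -0.42 and -0.45 over all bins. The immunoprecipitate was also brighter than elsewhere, at -0.24 and -0.21 against -0.40 and -0.40. The low ratio therefore came with an input that rose more above the other bins than the immunoprecipitate did. Across bins the input and the ratio had Pearson's r of -0.51 in replicate 1 and -0.70 in replicate 2, 2 measures that share the input signal. When the ratio was corrected for the mean brightness of both channels, a choice made after the values were seen, 10.95 of the 12 Mb were taken again, in 132 domains with a median of -0.34. How much of the low ratio goes with the high input itself was not tested.

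Myb-poor bins lay next to each other. Of the 479 bins that neighbour a Myb-poor bin, counted once for each side, 220 (45.9%) were Myb-poor, against 9.98% of all bins. Merging adjacent bins left 76 single bins and 54 domains of 2 or more bins, and these 54 held 164 of the 240 bins. The 27 domains of 3 or more bins held 110 bins and covered 5.5 Mb. The longest domain had 9 bins (450 kb) and the next 8 bins (400 kb), followed by 6 domains of 250 kb, 6 of 200 kb and 13 of 150 kb. Successive domains of an arm were a median of 350 kb apart. In 19 of the 124 gaps only a single bin stood between domains. With bins shifted by 25 kb the number of domains stayed at 130 and the longest at 450 kb, although 7.75 of the 12 Mb were then taken again.

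**Figure D2:**
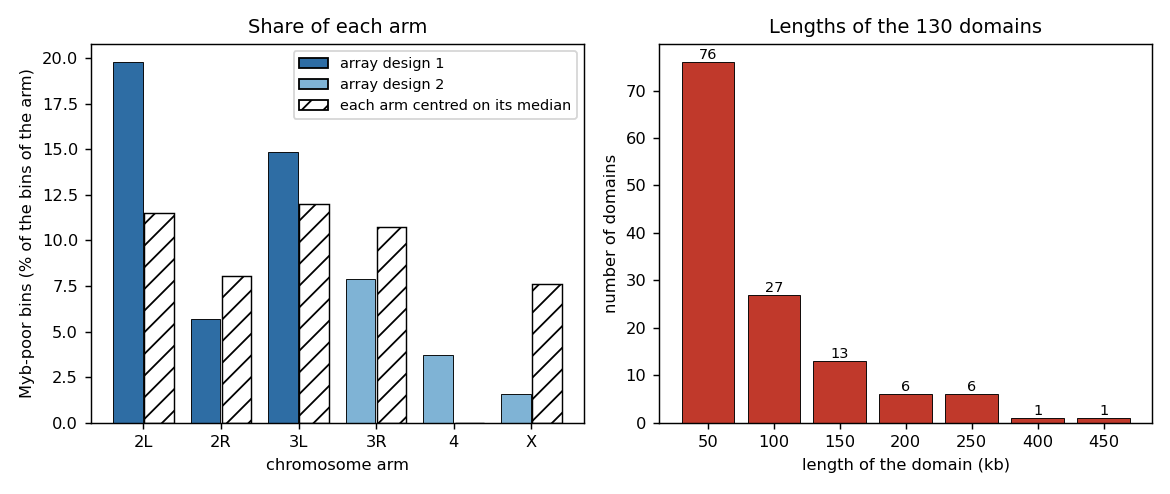
Left, the percent of the bins of each arm that were Myb-poor, in filled bars by array design, and the same after each arm was centred on its own median, in hatched bars; 2L had 91 bins (19.8%) and X 7 bins (1.57%) before this centring, and 53 and 34 bins after it. Right, the number of domains of each length in kb, from 76 single bins to 1 domain of 450 kb.

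Arm 2L held most Myb-poor bins, 91 of its 460 (19.8%). It was followed by 3L with 73 of 491 (14.9%), 3R with 44 of 558 (7.89%) and 2R with 24 of 422 (5.69%). On the X, 7 of 447 bins (1.57%) were Myb-poor, and on chromosome 4, 1 of 27. The arms of array design 1 held 78.3% of the Myb-poor bins and 57.1% of all bins, and the array and the arms cannot be told apart across designs. When each arm was centred on its own median, 2L had 53, 3L 59, 2R 34, 3R 60, X 34 and chromosome 4 had 0 Myb-poor bins, and the share on design 1 arms was 60.8%. The X counted 29 Myb-poor bins with replicate 1 alone and 1 with replicate 2 alone, and 3R counted 54 and 29, so that 3R was above 2R in number in replicate 1 (19 on 2R) and below it in replicate 2 (31 on 2R). The order of 2L and 3L above 2R, all on the same arrays, held in each replicate alone, with 78 and 58 bins on 2L and 3L in replicate 1 and 94 and 85 in replicate 2, and 2L and 3L changed places when arms were centred.

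Within 2L, 66 of the 91 Myb-poor bins lay among the 200 bins between 9 and 19 Mb. The stretch from 2L:17000001 to 18000000 held 15 Myb-poor bins among 20, with a mean log2 ratio over the 20 bins of -0.35 in both replicates, and 2L:15000001-16000000 held 10 of 20. The first Mb of 2L held 0 of 20 and had means of 0.29 and 0.37. Near the centromere, the last 2 Mb of the arms held 29 Myb-poor bins among 226. The 2 Mb next to the telomeres held 4 among 227, where 9.98% of all bins were Myb-poor. Chromosome 4 is shorter than 2 Mb, so its 27 bins, 1 of them Myb-poor, entered both counts. The 7 bins on the X ranged from -0.41 to -0.22 in replicate 1 and from -0.35 to -0.16 in replicate 2, and all but X:21650001-21700000 (-0.22 and -0.35) were lower in replicate 1. The bin on chromosome 4 (4:250001-300000) had -0.44 and -0.19.

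Averaged over the edges of the 27 domains of 3 or more bins, the ratio in windows of 5 kb fell by degrees. At 30 to 40 kb outside, the windows averaged 0.11 in replicate 1 and between 0.16 and 0.18 in replicate 2. The outermost 5 kb of the flank averaged -0.18 and -0.14, and the first 5 kb inside -0.28 and -0.27. From 25 kb inwards all windows lay between -0.44 and -0.37 in both replicates. The SD over edges was 0.39 in replicate 1 and 0.45 in replicate 2 in the window centred 32.5 kb outside, and 0.17 in both centred 27.5 kb inside, over 54 edges. The bin grid was fixed and the domains were chosen on the same ratio, so the true edge can lie anywhere in the bins at the border. An average over such edges slopes even where each edge is sharp, so the profile cannot tell a slope from a step.

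**Figure D3:**
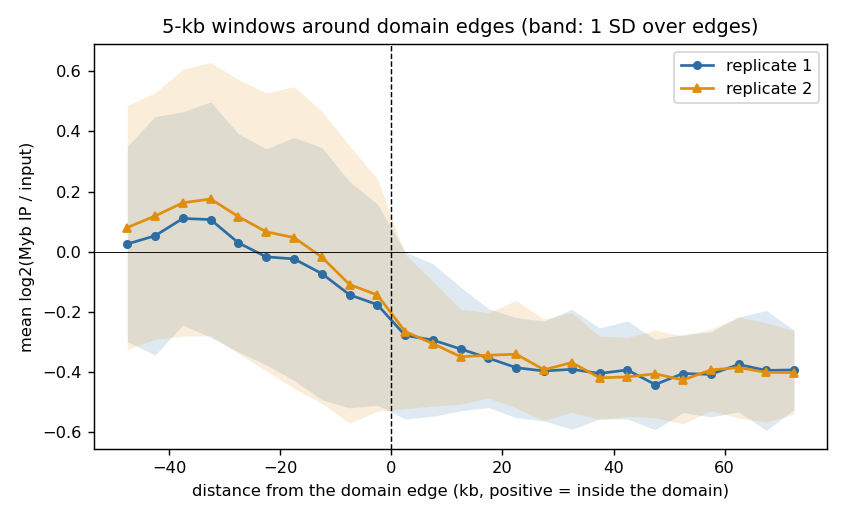
Mean log2 ratio in 5-kb windows (y axis) by distance from the domain edge in kb (x axis, positive inside), for the 27 domains of 3 or more bins, with lines for replicate 1 and replicate 2 and bands of 1 SD over 52 to 54 edges. Both replicates fall from above 0 outside to about -0.4 from 25 kb inwards.

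Genes were given a place on dm3 from the positions of transcripts and peaks that the study's annotation lists for some genes, and every other gene was put between its nearest placed neighbours from its rank in the RefSeq gene list of Release 6. A gene between a pair of placed neighbours cannot be set more exactly. For the 10 longest domains the placed neighbours lay from 1.69 to 310 kb beyond the edge of the domain, so that genes listed between them may lie outside it, and the genes named below are those of the interval and not of the domain alone. The placed genes were in part those with a Myb peak, which is called where the ratio is high.

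The longest domain, 2L:15800001-16250000, was also the lowest among the 10 longest, with a mean of -0.46 in replicate 1 and -0.52 in replicate 2. Its 9 bins ranged from -0.56 to -0.39, and 90 of its 90 windows of 5 kb were below 0 in both replicates. It held 5 of the 10 lowest bins of the genome, among them the lowest, 2L:15950001-16000000, at -0.57 and -0.56. The bin to its right rose to 0.37 and 0.69. The domain lies between CycE, which encodes the S-phase cyclin E, and crp, with 46 protein-coding genes between them. These include beat-Ia, beat-Ib and beat-Ic, immunoglobulin proteins of axon guidance, and the calcium channel gene Ca-alpha1D. Also there are Gli, a septate junction protein, BicC, an RNA-binding protein of the ovary, twe, the Cdc25 phosphatase of male meiosis, and Tep1, a thioester protein of the immune system whose own transcript lies in a Myb-poor bin.

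CycE itself lay in a 100-kb gap between this domain and another, 2L:15500001-15700000, which had -0.36 and -0.41. The 2 bins of the gap had -0.15 and -0.03, and -0.13 and -0.07. The gap was thus below the array median but above the domains on both sides in both replicates. On the mean of both replicates any gap lies above its domains by the choice of the bins, so this singles out no gene. Between lace and CycE, 20 protein-coding genes were listed, among them the odorant receptor gene Or35a and kek3, which encodes a transmembrane protein with leucine-rich repeats.

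The next longest domain, 2L:16950001-17350000, had -0.46 and -0.45 over 8 bins and held 3 of the 10 lowest bins. Its neighbours were less distinct from it than those of the first, at -0.15 and -0.18 on the left and -0.27 and -0.14 on the right. It lies between CG12288 and Dif, with 26 protein-coding genes. They include beat-IIIa, beat-IIIb and beat-IIIc and the taste receptor genes Gr36a, Gr36b and Gr36c. A window in its interior, 2L:17145001-17150000, stood out at 0.47 and 0.21, the only one of its 78 windows above 0 in both replicates.

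**Figure D4:**
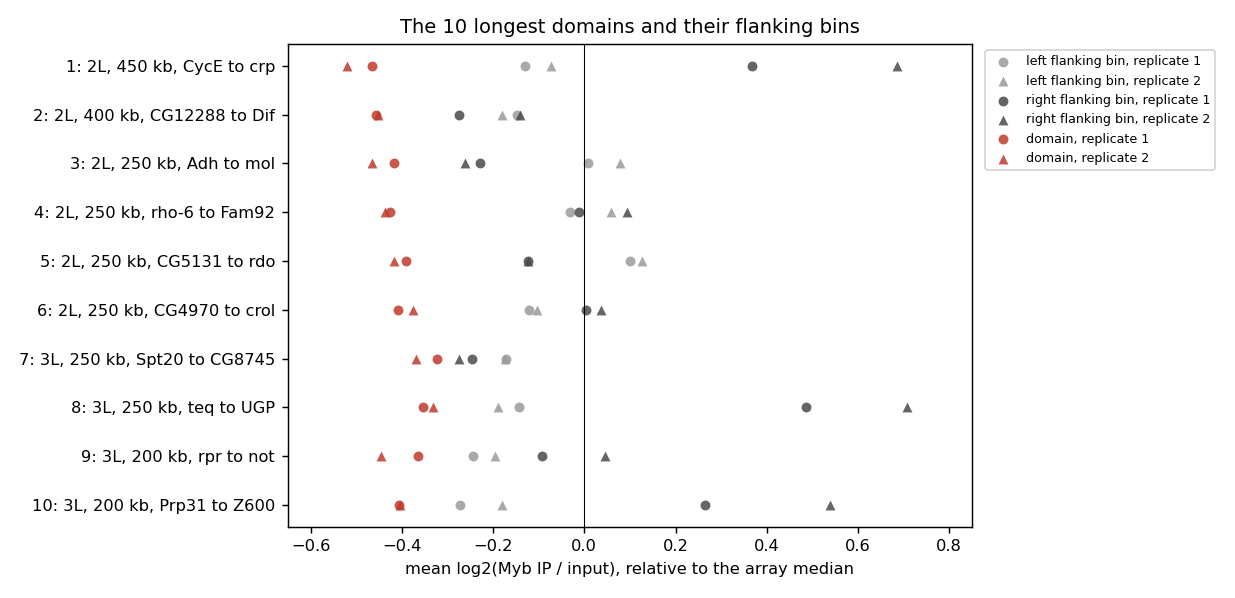
Mean log2 ratio (x axis) of the 10 longest domains in red and of the 50-kb bins next to them in grey (left) and dark grey (right), with circles for replicate 1 and triangles for replicate 2; names are the nearest placed genes. The domains lie between -0.52 and -0.32, and every flanking bin lies above its own domain in both replicates. For the mean of both replicates the choice of the bins sets this in advance.

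The other domains of 250 kb were 4 on 2L and 2 on 3L. The domain 2L:14700001-14950000 had -0.42 and -0.47 and lies between Adh, the alcohol dehydrogenase gene, and mol. The 27 genes between them include ProtA and ProtB, the protamines of sperm chromatin, and side-II, of the sidestep family that binds beat proteins. The domain 2L:12150001-12400000 had -0.43 and -0.44 and lies between rho-6 and Fam92, with 16 genes that include bru1 and bru2, RNA-binding proteins of the Bruno family, and Gr33a, a taste receptor gene. The domain 2L:17500001-17750000 had -0.39 and -0.42, and a further domain of 150 kb, 2L:17800001-17950000, with -0.45 and -0.50, was separated from it by a single bin at -0.12 in both replicates. Both lie between CG5131 and rdo, where 31 genes include the paired N-cadherin genes CadN and CadN2.

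The domain 2L:11550001-11800000, with -0.41 and -0.38, lies between CG4970 and crol. The 25 genes between them include Acp33A and Sfp33A1, which encode seminal fluid proteins, and Mst33A, a gene named for male-specific transcripts. On 3L, the domain 3L:13600001-13850000 had -0.32 and -0.37, and only 9 genes were listed between Spt20 and CG8745, among them bru3, of the Bruno family, and Hml, a clotting protein of blood cells. The domain 3L:9100001-9350000 had -0.35 and -0.33 and a right neighbour at 0.49 and 0.71. The 15 genes between teq and UGP include Rdl, a GABA receptor subunit, GluRIB, a glutamate receptor subunit, bol, a regulator of male meiosis, and the peptidoglycan sensors PGRP-LA, PGRP-LC and PGRP-LF.

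The remaining domains of the 10 longest were both 200 kb long, 3L:18400001-18600000, with -0.36 and -0.45, and 3L:15300001-15500000, with -0.41 and -0.40. The first lies between rpr and not, and the 17 genes between them include AstC-R1 and AstC-R2, receptors for allatostatin C, and skl, a cell death activator. With 3L:18250001-18350000, a domain of 2 bins at -0.30 and -0.38, it flanks the bin of rpr, another cell death gene, which had -0.24 and -0.20. The bin of rpr was less low than the domain on either side in both replicates, which for their mean again follows from the choice of the bins. The cell death genes hid and grim were listed between CG13699 and rpr, an interval that reaches 99.3 kb to the left of the 2-bin domain, where the next bin had 0.22 and 0.47, so that either may lie outside it. The domain 3L:15300001-15500000 lies between Prp31 and Z600, with the Toll family receptor genes Tollo and Toll-6 among 18 genes. Its right end held the second highest window of all Myb-poor bins, 3L:15490001-15495000, at 0.57 and 0.40, and the bin to its right rose to 0.26 and 0.54.

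Windows above 0 inside Myb-poor bins were few and often at the border. Of the 45 windows above 0 in both replicates, 17 touched the edge of their domain and 28 lay within 5 kb of it, and 21 were in domains of 3 or more bins. No such window was found in 99 of the 130 domains, nor in 16 of the 27 domains of 3 or more bins. The highest, 3L:5455001-5460000, reached 0.66 and 0.34 at 40 kb from the nearest edge of a 100-kb domain. In the 10 longest domains, 3 windows besides 2L:17145001-17150000 lay more than 5 kb from an edge, 3L:15330001-15335000 at 0.25 and 0.09, 3L:9125001-9130000 at 0.26 and 0.45, and 2L:12170001-12175000 at 0.17 and 0.34.

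The gene families were compared by the stretch between neighbouring placed genes in which each gene lay. A gene placed by its own transcript or peak was scored on that span instead. A gene was counted where more than 50% of its stretch or span was inside Myb-poor bins. This measure was added after values were seen, because only 58 protein-coding genes could be set strictly inside a Myb-poor bin, 31 of them by their own position. Among these 58 were 3 neurotransmitter receptor genes of 32 strictly placed (nAChRalpha5, Rdl and GluRIB) and 1 of 31 UDP-glycosyltransferase genes (Ugt50B3). Each other family had 0, including 0 of 20 strictly placed dpr, DIP, beat and side genes and 0 of 33 odorant-binding proteins. Taste receptors had 0 of 44, odorant receptors 0 of 37 and ionotropic receptors 0 of 47. Over all 11984 strictly placed protein-coding genes the share was 0.484%, so a 0 in lists this short cannot be set apart from it. The family counts that follow rest on the stretches for genes without a position of their own, and on the gene's own span for the rest. By this measure, 736 of 13780 located protein-coding genes (5.34%) were counted. The stretches over 50% Myb-poor covered 10.2 Mb and held 75.9 protein-coding genes per Mb, against 73.0 in stretches 1% to 50% Myb-poor, 124 in stretches under 1% and 113 over all. The lower gene number was thus shared by stretches that were Myb-poor only in part. Both of these classes also had long stretches, at a median of 136 and 174 kb against 18.1 kb in stretches under 1%. How gene number goes with the length of a stretch was not tested. The partly Myb-poor class includes the interval of the histone genes, from Tsp39D to Df31, with 118 genes.

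By stretches, the highest share was that of immunoglobulin proteins of neuronal recognition. Of 52 located genes of the dpr, DIP, beat and side families, whose products pair on the surfaces of neurons and muscles, 22 (42.3%) lay in stretches over 50% Myb-poor, in 13 different stretches. They included the beat-I and beat-III genes above, beat-Va, beat-Vb and beat-Vc in the interval around 3R:8550001-8750000 (-0.42 and -0.30), and dpr6 and dpr10 in the interval from CalpB to scramb1, which spans 3L:10000001-10200000 (-0.37 and -0.44), the Myb-poor bin 3L:9900001-9950000 and a bin between them that was not Myb-poor. Neurotransmitter receptors had 8 of 41 genes (19.5%) counted, at 5 places. These were the muscle glutamate receptors GluRIIA and GluRIIB, the serotonin receptors 5-HT1A, 5-HT1B and 5-HT2A, Rdl, GluRIB and nAChRalpha5. Of these, nAChRalpha5 was counted by its own transcript and not by a stretch. The bin that holds the transcript of nAChRalpha5, 2L:14050001-14100000, had -0.42 and -0.40. Of 31 neuropeptide receptor genes, 2 were counted, both in the interval between rpr and not.

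Chemosensory families spread over a wide range of shares. Odorant-binding proteins had 11 of 51 genes (21.6%) in 4 stretches, with the cluster Obp57a to Obp57e in the interval around 2R:16250001-16400000 (-0.40 and -0.39). Taste receptors had 8 of 60 genes (13.3%), odorant receptors 7 of 59 (11.9%) and ionotropic receptors 6 of 60 (10%). Or33a, Or33b and Or33c shared a list with the seminal fluid genes Sfp33A2, Sfp33A3 and Sfp33A4 around 2L:11850001-11950000 (-0.35 and -0.33), and Ir56b, Ir56c and Ir56d lay around 2R:15400001-15450000 (-0.31 and -0.28). Seminal fluid proteins had 6 of 49 (12.2%) and sperm and testis genes 4 of 42 (9.52%). Among 48 proteasome genes 5 were counted, of which Prosbeta4R1, Prosbeta4R2, Prosbeta5R2 and Rpn12R are named as relatives of core subunits and only Prosbeta2 is a core subunit.

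**Figure D5:**
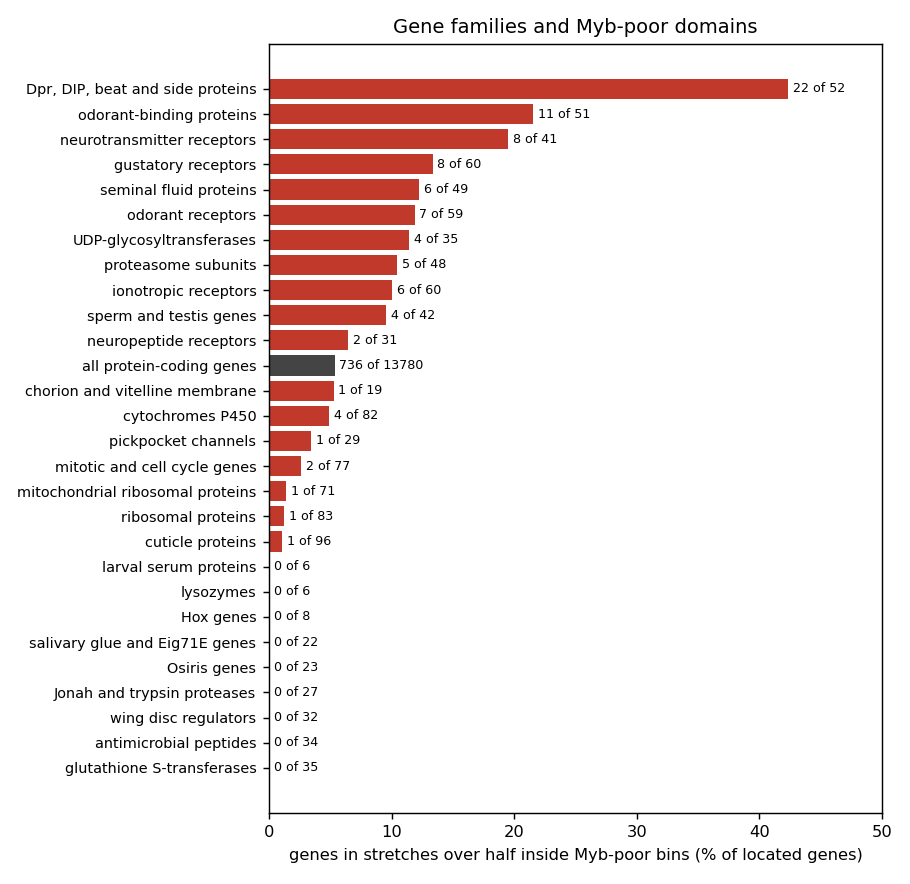
Percent of located genes of each family (x axis) with more than 50% of their stretch between placed genes, or of their own placed span, in Myb-poor bins. Counts stand beside the bars and all protein-coding genes are in dark grey. The dpr, DIP, beat and side families have the highest share, 22 of 52 genes, and the families at the bottom have 0.

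Families with roles in growing or patterned tissue are set beside the 5.34% of all located genes. A gene placed by a Myb peak was scored on that peak, so its share was low in advance. Own positions, from transcripts or peaks, were held by 44 of 72 strictly placed mitotic and cell cycle genes. This compares with 5 of 20 dpr, DIP, beat and side genes and 3045 of 11984 protein-coding genes. The mitotic share below cannot be told apart from this effect of placement. Of 77 mitotic and cell cycle genes, 2 were counted, barr, a condensin subunit, and Spc25, a kinetochore protein. Spc25 was listed within the stretch of beat-Va, and barr among 5 genes in a 98.8-kb interval around the bin 2L:20000001-20050000. The own place of neither gene is fixed. Cks30A, a Cdk subunit of the female germline, was outside this list of genes and had its own transcript in the Myb-poor bin 2L:9300001-9350000. Ribosomal proteins had 1 of 83 (RpL10Aa), mitochondrial ribosomal proteins 1 of 71 (mRpL39) and cuticle proteins 1 of 96 (Cpr57A). Of 32 regulators of wing disc growth and pattern and of 8 Hox genes, 0 were counted, lists too short to set apart from the share of all genes.

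Several other families known for clustered genes had none counted by this measure. The lists of 35 glutathione S-transferases, 27 Jonah and trypsin protease genes, 22 salivary glue and Eig71E genes, 34 antimicrobial peptide genes, 23 Osiris genes, 6 lysozymes and 6 larval serum proteins each had 0 genes counted. None of these lists is long enough for its 0 to be set apart from the share of all genes. Some genes of these lists still lay in intervals that reach over a Myb-poor bin by less than 50%. Osi1 to Osi8 and Osi24 shared the interval around 3R:1950001-2000000 (-0.43 and -0.23). Osiris genes had a mean of 7.47% of their stretch or own span in Myb-poor bins against 6.14% for all genes. Dro, AttA and AttB, antimicrobial peptide genes, were listed around 2R:10550001-10600000 (-0.29 and -0.30). Clusters of other families listed around single Myb-poor bins were Gr98a to Gr98d, Gr58a to Gr58c and Mst57Da to Mst57Dc. Among cytochromes P450 4 of 82 (4.88%), among UDP-glycosyltransferases 4 of 35 (11.4%), among pickpocket channels 1 of 29 and among chorion and vitelline membrane genes 1 of 19 were counted. The members of a family in the same stretch share their neighbourhood and are not independent, so these shares are descriptions and no test was made.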

How the data were processed

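The authors deposited 2-colour Agilent Feature Extraction files, 1 per array, and a joined table of log2 values, 1 column per replicate. Build dm3 is given per the file headers. The deposited intensities used were the processed signals, background-subtracted and dye-normalised within the array. The deposited log10 ratio column served only to check the ratios. The deposited log2 table was normalised by the authors and was used as an alternative, and its log base was taken from its agreement with the scanner files (Pearson's r of 0.982 to 0.986 with the same replicate).

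Control spots and outlier spots (0.0364% to 0.353% per array) were left out. The log2 ratio of Cy5 over Cy3 was centred on the median genome probe of each array, probe values were averaged in 50-kb bins with 300 or more probes, which left out 5 of 2410 bins, and the lowest 10% were taken on the mean of 2 replicates. Input was well above background at 97.7% to 98.6% of probes and the immunoprecipitate at 98.9% to 99.2%. Saturated Cy5 spots, kept, were 0.0328% to 1.04%. Probes and bins were tested against 0 with limma 3.58.1 (R 4.3.3, intercept only, moderated, 2 replicates, Benjamini-Hochberg at 0.05, checked on simulated data). The p-values rest on the spread between the 2 biological replicates, moderated by the spread pooled over all probes or all bins, and measure no other source of variation. Bins were handled with Python, pandas and numpy.

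Genes were placed from the part of the study's transcript and peak lists that was held (1708 and 1353 genes, 28 names unmatched). The others were placed from gene order in the RefSeq Release 6 list, whose coordinates were not used. Of 3086 genes with a position, 58 were out of order and did not serve as neighbours. Those of them with a transcript kept its position. Of 221 genes in both lists, 195 had their peak within 10 kb of their transcripts. Named were the 10 longest domains (ties by lower mean), the 10 lowest bins, 5 bins on each side of the threshold, families with 3 or more genes listed between the neighbours of a domain, and a few other genes per domain, some chosen after their values were seen. The members, gene lists and tests were chosen with earlier results of these data known. No sequences are printed.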

Additional observations from a re-analysis of the deposited data

How the results depend on the processing

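Across the alternatives with 50-kb bins and the lowest 10%, the set gave 122 to 141 domains and a longest domain of 450 kb, against 130 and 450 kb as reported. With bins of 25 kb there were 233 domains, the longest of 475 kb, and a median of -0.38, and with bins of 100 kb 81, 500 kb and -0.31. Taking the lowest 5% gave 66 domains and a median of -0.40, and the lowest 20% gave 238, a longest domain of 500 kb and -0.27. The median of the Myb-poor bins was -0.31 with normexp background correction, -0.21 with arrays centred on the mode and -0.37 with each arm centred on its median, and -0.36 to -0.35 with 1 replicate left out. The share on the arms of array design 1 was 60.8% with each arm centred, and 64.6% to 87.5% with 1 replicate left out. The number of domains was then 126 to 140 and the longest stayed at 450 kb.

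The medians in the replicate that did not choose the bins, as reported -0.33 and -0.34, were -0.30 and -0.31 with normexp, -0.21 and -0.22 with mode centring, -0.36 and -0.36 with arms centred, -0.33 and -0.33 with the bin median, and -0.33 and -0.33 after brightness correction. Probes called below 0 in Myb-poor bins, 17592 as reported, numbered 26709 with normexp and 19890 with each arm centred. They numbered 10887 with the authors' table of log2 values and 9912 with mode centring. Those called above 0, 517 as reported, numbered 1051, 569, 360 and 943 in the same order. Bins called below 0, 547 as reported, numbered 587, 722, 522 and 228 in this order. With mode centring 224 of the 240 Myb-poor bins were called, and with each of the others all 240. Protein-coding genes in Myb-poor bins numbered 58 of 11984 strictly placed, 31 of 3045 with their own position and 736 of 13780 by stretch or own span. The causes were not tested, except that other bin sizes and shares change the number of bins and gene placement changes the genes counted. The 130 values of the 10 longest domains under these alternatives all stayed below 0, from -0.52 to -0.22. Of these, 34 moved by more than 1 SD of the replicates. The domains were chosen as low on the same data, so their sign describes them and tests nothing. Leaving out spots that were not well above background in both channels gave 129 domains, and the spread between replicates is known from 2 values only. No paired analysis was possible because there is only a single group.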
